A study of Homo sapiens with 18 samples.

Results

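The early response to estradiol (E2) was measured in PEO1 cells transfected with a control siRNA. PEO1 is an established human line of high-grade serous ovarian cancer with a mutant p53, as the title of the series has it. The 6 samples examined are 3 siControl samples at 0 h, labelled untreated, and 3 siControl samples after 2 h with 10 nM E2, out of 18 samples in the series. All genes were taken, and 15318 of the 57736 rows of the table passed the filter on low counts and were tested. The series also holds siControl cells after 8 h of E2 and cells given an siRNA against p53 (sip53) at 0, 2 and 8 h, again 3 samples each. Every group was kept in phenol red-free medium with charcoal-stripped serum, which is low in steroid hormones, for 48 h before E2. The comparison has no vehicle-treated group at 2 h, so E2 and the elapsed time cannot be told apart, and the labels leave unsaid whether the 3 samples per group were grown as independent cultures. If they were not, the p-values describe technical spread.

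Estradiol enters cells and binds estrogen receptor alpha, the product of ESR1, a ligand-activated transcription factor. The bound receptor dimerises, attaches to estrogen response elements or to other factors on DNA, and recruits coregulators that raise or lower transcription. In breast cancer cells its well-known targets include GREB1, PGR, TFF1, MYC and CCND1. A subset of ovarian carcinomas also carries the receptor. Samples collected soon after hormone addition are used to look at early transcripts, before many secondary changes have built up.

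Total counts in the 6 samples ran from 7542457 to 10132570. The libraries read the 3' ends of transcripts, so levels are given as counts scaled to library size (CPM, after TMM scaling), without division by length, and are compared between samples of the same gene. The 11 ovarian carcinoma markers, among them PAX8, EPCAM and KRT7, were all tested, and their summed level was 5140 to 5480 CPM at 0 h and 5410 to 5660 CPM at 2 h. Fibroblast markers summed to 119 to 126 CPM at 0 h and 134 to 138 CPM at 2 h. Most of that sum was THY1, and COL1A2, COL3A1, DCN, LUM and POSTN had 0 counts in all 6 samples. The leukocyte sum was 9.8 to 15 CPM at 0 h and 15.1 to 20 CPM at 2 h, mostly from CD68 and CD14, with PTPRC and 7 others of the 12 markers at 0 counts. Of the 8 endothelial markers 5 were at 0 counts and the sum was at most 1.14 CPM. The part of these small shifts in the results was not tested. In bulk RNA, fewer cells of a kind and less RNA per cell cannot be told apart. The library of siControl 0 h replicate 2 had the lowest depth and lay farthest out on the first component of the 6 samples. It was at 56.8 there (33.2% of the variance), where the other 5 lay between -35.4 and 13.2. Replicate 1 of 0 h was at -18.5, within the range of the 2 h samples (-35.4 to -7.9). The root-mean-square log2 distance to the other replicates of the group was 0.674 for 0 h replicate 2, 0.66 for replicate 1 and 0.617 for replicate 3.

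After 2 h of E2, 35 genes were higher than at 0 h, which is 0.228% of the genes tested, and 0 were lower. A gene was called when its Benjamini-Hochberg adjusted p over all 15318 genes was under 0.05 in edgeR's quasi-likelihood test. The 35 included the cytokine-signalling inhibitor CISH, the transcription factors TFAP2C, SOX7, KLF4 and KLF7, the secreted factors CCN1 and NMU, the surface protein F3, and 6 solute carriers. Fold changes ran from 1.37 to 8.94 with a median of 1.88. At an unadjusted p under 0.05, 975 genes were higher (6.37%) and 773 were lower (5.05%), and DESeq2 called 101 higher and 29 lower. The median log2 fold change over all tested genes was -0.006.

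**Figure D1:**
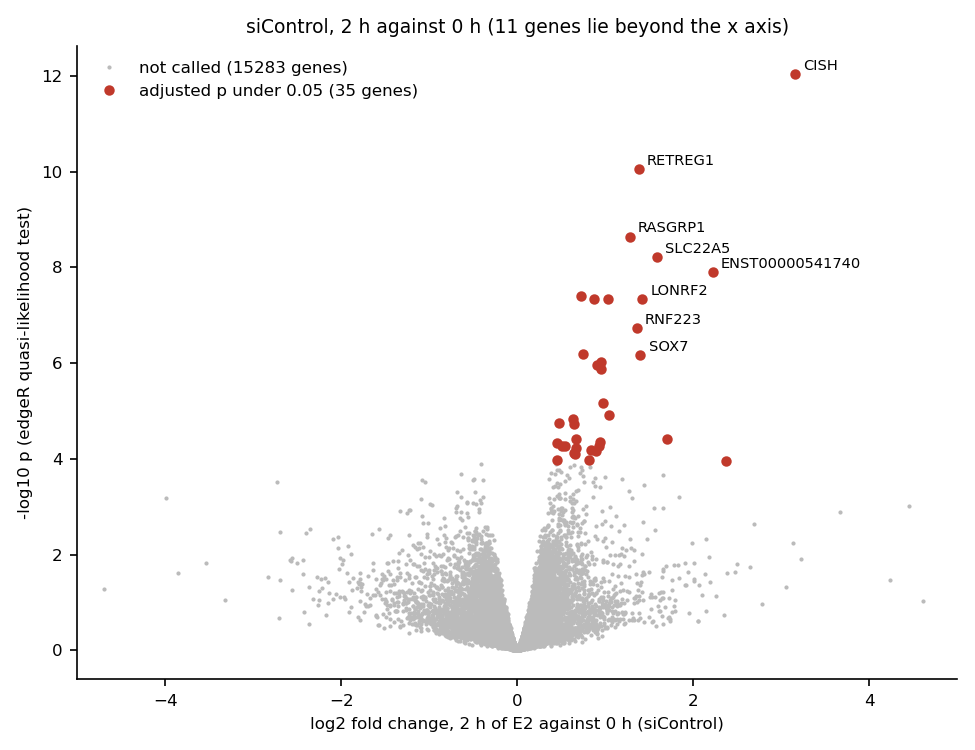
Log2 fold change of each tested gene at 2 h against 0 h in siControl cells (x axis) against -log10 of the unadjusted edgeR p (y axis). The 35 called genes, in red, all lie to the right of 0, and CISH has both the largest change among them (3.16) and the smallest p. 11 genes lie beyond the x axis, none of them called.

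In all 35 genes the 3 values at 2 h lay above the 3 values at 0 h, as they did in 7.46% of all tested genes. The calls were made on these same values, so the separation describes the 35 and adds no support. The genes are described by role below. The naming rule took 19 of the 35, and those described beyond it were added after their values were seen. When each of the 6 libraries was left out in turn, 15 genes were called every time, among them CISH, RETREG1, RASGRP1, SLC22A5, TFAP2C, LONRF2, PELI1, RNF223, SOX7, F3, TRIM55 and a row known only by transcript ENST00000541740. The other 20 lost the call in at least 1 of those fits. Of the 35 genes, 18 were called without siControl 0 h replicate 2, 18 without siControl 2 h replicate 2 and 15 without siControl 2 h replicate 3. In a fit of the 6 samples alone, 12 of the 15 were called, and those that were not included F3 (adjusted p = 0.0849) and TRIM55 (adjusted p = 0.223).

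CISH had the largest fold change of the 35. It encodes a member of the suppressor of cytokine signalling family that binds activated cytokine receptors and dampens STAT5 signalling. CISH (ENSG00000114737, GRCh38 chr3:50606490-50611831, minus strand) measured 2.7, 1.93 and 1.71 CPM at 0 h and 18.5, 16.6 and 22.7 CPM at 2 h. The groups lay far apart, with the lowest 2 h value several times the highest 0 h value. The log2 fold change was 3.16 ± 0.22 (SE), an 8.94-fold rise, with an adjusted p of 1.42e-08. The raw counts behind it summed to 56 at 0 h and 504 at 2 h. MAPKAPK3 overlaps CISH on the opposite strand, and no source used here gives the strand setting of the authors' counting. MAPKAPK3 itself had a log2 fold change of -0.20. No other of the 18 measured genes of the JAK-STAT and SOCS list was called, and the list's median log2 fold change was 0.01.

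The stretch upstream of CISH is shown because CISH is known as a STAT5 target and the spaced motif TTCNNNGAA, the STAT5 core motif, is repeated there. It is from RefSeq on GRCh38.p14, chr3:50611832-50611907, minus strand, 76 bases that lie in no annotated exon, with the motif in capitals:
CISH: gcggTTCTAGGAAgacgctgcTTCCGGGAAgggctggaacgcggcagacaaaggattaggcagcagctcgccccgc
These matches begin at -129 and -112 from the RefSeq start. A further pair, at -241 and -230, lies upstream, where the annotation places an exon of MAPKAPK3 on the other strand. TTCNNNGAA reads the same on both strands and was searched for after the CISH result was seen. Of the windows of 250 bases upstream of the called genes, 3 (10.71%) held it, against 5.46% of the windows of all tested genes. CISH, which prompted the search, is among the 3, so the share is a description and adds no support. RefSeq windows were matched for 20 of the 35 genes, 28 windows in all. A match describes these letters and is not a measured binding site.

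The full estrogen response element, GGTCA and TGACC with any 3 bases between them, was in 0 of the 28 windows and in 0.01% of those of tested genes. Its single arm GGTCA, searched on both strands and so contained in the full element, was in 35.71% of the 28 windows against 29.96% of those of tested genes. Of the windows with that arm, 3 belong to genes called in every leave-one-out fit, PELI1, RNF223 and F3. Their exon-free stretches are shown with the arm in capitals, all on the minus strand of GRCh38.p14: chr2:64144455-64144670 for PELI1, chr1:1074308-1074556 for RNF223 and chr1:94541801-94542009 for F3. The arm begins at -238, -154 and -117 from the RefSeq start, and in all of them it reads TGACC on the gene's strand:
PELI1: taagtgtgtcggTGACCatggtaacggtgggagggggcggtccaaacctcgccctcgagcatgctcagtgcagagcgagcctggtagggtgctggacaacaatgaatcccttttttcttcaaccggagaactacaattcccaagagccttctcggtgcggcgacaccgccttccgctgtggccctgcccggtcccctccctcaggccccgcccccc
RNF223: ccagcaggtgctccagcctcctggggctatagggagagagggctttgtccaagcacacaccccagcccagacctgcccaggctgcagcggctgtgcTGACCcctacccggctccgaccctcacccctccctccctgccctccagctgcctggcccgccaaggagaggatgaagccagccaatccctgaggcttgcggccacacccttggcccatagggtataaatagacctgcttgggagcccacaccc
F3: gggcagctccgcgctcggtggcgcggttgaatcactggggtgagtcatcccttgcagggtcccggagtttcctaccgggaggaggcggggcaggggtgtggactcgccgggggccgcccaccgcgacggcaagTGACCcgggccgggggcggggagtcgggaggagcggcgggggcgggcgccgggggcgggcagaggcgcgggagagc

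Among the receptor and its partners, the receptor transcript was not called and 1 coregulator rose. ESR1 (chr6:151656691-152129619) measured 57.2, 78.2 and 66.3 CPM at 0 h and 62.0, 61.8 and 82.9 CPM at 2 h, so the groups overlapped, and its log2 fold change was 0.04 ± 0.12 (adjusted p = 0.941). ESR2, the gene of the beta receptor, had 4 counts in total over the 9 siControl samples and was not tested. Of the 23 measured estrogen receptors and coregulators, 1 was called, TFAP2C, a transcription factor that works with the estrogen receptor in breast cancer cells. TFAP2C (chr20:56629302-56639283) rose from 190, 204 and 198 CPM to 338, 312 and 327 CPM, with little spread inside either group. Its log2 fold change was 0.72 ± 0.09 and its adjusted p 7.91e-05. GATA3, another transcription factor of the list, had a log2 fold change of 0.86 ± 0.20 with an adjusted p of 0.0718 in edgeR and of 0.0165 in DESeq2, and the list's median was -0.08.

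Of the classical breast cancer targets named above, those tested were not called at 2 h by edgeR in siControl, while DESeq2 called MYC. GREB1, a receptor cofactor that is itself estrogen-induced, was near the lower end of detection, at 2.4, 1.16 and 0.489 CPM at 0 h and 1.48, 2.52 and 1.97 CPM at 2 h. The GREB1 groups overlapped, and the log2 fold change was 0.52 ± 0.49 (adjusted p = 0.736). PGR, the progesterone receptor, had 0 counts in all 9 siControl samples, and TFF1, a secreted trefoil peptide, had 0 counts in all 18 samples. MYC, the growth-promoting transcription factor, measured 16.5, 5.77 and 16.5 CPM at 0 h and 26.0, 26.2 and 26.3 CPM at 2 h. The MYC groups did not overlap, with 0 h replicate 2 well below its group, but the log2 fold change of 1.00 ± 0.23 had an adjusted p of 0.0683 in edgeR and of 0.0034 in DESeq2. CCND1, a G1 cyclin, had a log2 fold change of 0.12 ± 0.10, and AREG, a ligand of the EGF receptor, of 0.21 ± 0.17. Neither CCND1 (adjusted p = 0.714) nor AREG (0.671) passed the test. In sip53 at 2 h edgeR called MYC higher, at 1.04 ± 0.22 (adjusted p = 0.0386). At 8 h in siControl, against the same 0 h libraries, MYC was at 1.19 ± 0.23 (adjusted p = 0.00473). GREB1, CCND1 and AREG were called in neither of these comparisons.

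Of the 40 measured genes of the estrogen-induced list, 1 was called higher by edgeR, CISH, and 0 lower, and DESeq2 called CISH, FHL2 and STC2 higher and 0 lower. At an unadjusted p under 0.05, 15 of the 40 were higher, against 6.37% of all tested genes, and 0 lower, and 34 had a positive log2 fold change, against 49.0% of all tested genes. The list's median log2 fold change was 0.23. In the sip53 arm the median of the same list was 0.09, with 24 of 40 positive (48.7% of all tested genes). There 10 were higher at an unadjusted p under 0.05 (2.96% of all), 0 were lower, and edgeR called 4 higher (0.268% of all). Nearest to the threshold in siControl were FHL2, a LIM-domain coactivator, at 0.43 ± 0.10 (adjusted p = 0.0643), and STC2, a secreted glycoprotein hormone, at 0.36 ± 0.08 (adjusted p = 0.0702). STC2 measured 493, 500 and 460 CPM at 0 h and 586, 652 and 630 CPM at 2 h, without overlap. In FHL2 the values went from 155, 141 and 152 CPM to 220, 188 and 195 CPM, again with no overlap. Of 12 measured estrogen-repressed genes 1 was called, KLF4, and it was higher, against the direction in the list's name.

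**Figure D2:**
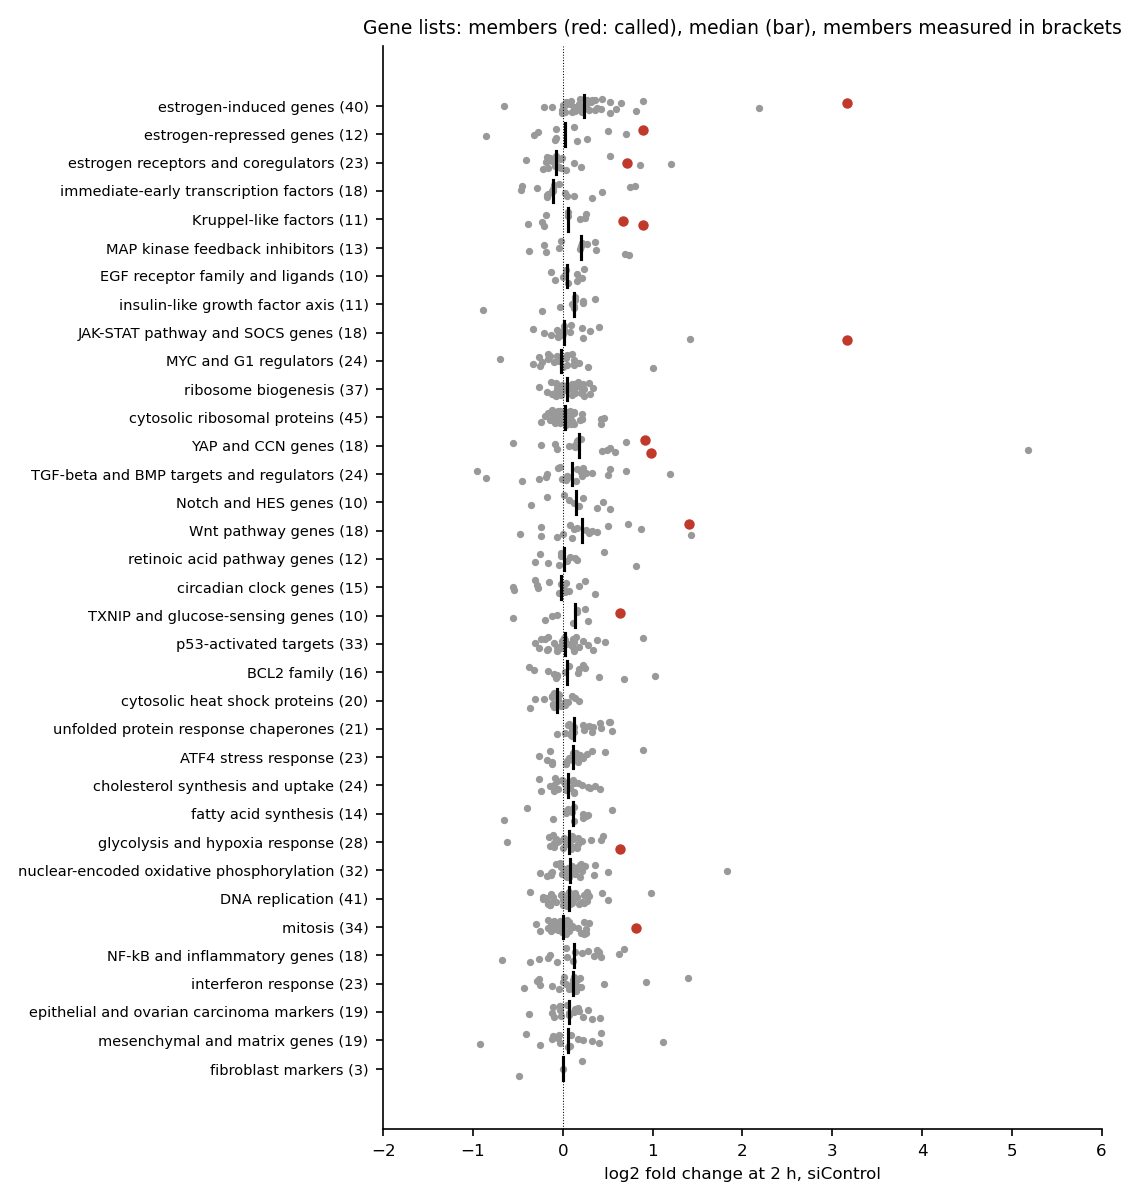
Log2 fold change at 2 h against 0 h in siControl cells (x axis) for the measured members of each gene list with at least 3 members (y axis, number measured in brackets). Grey points are members, red points are called members and black bars are list medians. Red points occur in 10 lists, with 2 at most in any of them, and the bars stay within 0.23 of 0.

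Several called genes act in signalling inside the cell. RASGRP1 encodes a guanine nucleotide exchange factor that switches on Ras in response to diacylglycerol and calcium. RASGRP1 (chr15:38488103-38565575, minus strand) measured 14.1, 14.1 and 17.4 CPM at 0 h and 35.8, 37.9 and 37.4 CPM at 2 h. The 2 h libraries lay within a narrow band well above all 0 h libraries, and the log2 fold change was 1.28 ± 0.14 (adjusted p = 1.16e-05). IFNGR1, the ligand-binding chain of the interferon gamma receptor, measured 11.4, 7.44 and 13.4 CPM at 0 h and 17.3, 22.7 and 22.2 CPM at 2 h. The IFNGR1 change of 0.94 ± 0.19 (adjusted p = 0.0303) was called in 3 of the 6 leave-one-out fits. None of the 23 measured interferon response genes was called in edgeR, and at an unadjusted p under 0.05 there were 0, and DESeq2 called 0. Of the 13 MAP kinase feedback inhibitors edgeR called 0, and DESeq2 called 1 lower, DUSP5 (adjusted p = 0.0196). At that unadjusted level 3 of the 13 were higher and 1 lower, where 6.37% and 5.05% of all tested genes were. In this list DUSP6 had a log2 fold change of 0.37 ± 0.15 and DUSP5 of -0.38 ± 0.10.

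Ubiquitin ligases and turnover factors formed another set. RETREG1 is a receptor on the endoplasmic reticulum that targets parts of it for autophagy. RETREG1 (chr5:16473038-16617058, minus strand) rose from 25.8, 28.2 and 33.4 CPM to 69.5, 76.2 and 82.3 CPM, with every 2 h value at more than double any 0 h value. Its log2 fold change was 1.38 ± 0.12 with an adjusted p of 6.72e-07. PELI1, a RING-type ubiquitin ligase of Toll-like receptor signalling, measured 28.4, 20.3 and 25.2 CPM at 0 h and 51.0, 44.8 and 56.1 CPM at 2 h. The groups did not overlap, and the log2 fold change was 1.03 ± 0.13 (adjusted p = 7.91e-05). The RING-finger genes LONRF2 and RNF223 were low at 0 h. LONRF2 went from 8.81, 9.75 and 7.58 CPM to 20.7, 21.2 and 28.2 CPM (log2 fold change 1.42 ± 0.18), and RNF223 from 9.91, 8.73 and 9.53 CPM to 25.6, 20.9 and 25.9 CPM (1.36 ± 0.18). Both were clearly separated, with adjusted p-values of 7.91e-05 for LONRF2 and 0.000288 for RNF223. TRIM55, a tripartite-motif ligase best known from muscle, measured 11.6, 11.2 and 11.6 CPM at 0 h and 21.3, 18.1 and 27.0 CPM at 2 h. Its log2 fold change was 0.95 ± 0.14 and its adjusted p 0.00132.

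The called transcription factors were TFAP2C, described above, and SOX7, KLF4 and KLF7. SOX7, a factor of endoderm and endothelium that restrains Wnt signalling, measured 6.81, 13.5 and 10.3 CPM at 0 h and 26.0, 26.1 and 27.6 CPM at 2 h. The 2 h libraries lay close together while the 0 h libraries spread, and the log2 fold change was 1.40 ± 0.20 (adjusted p = 0.000877). SOX9, another member of the family, went from 30.2, 23.9 and 28.8 CPM to 46.9, 45.8 and 44.9 CPM. The SOX9 groups did not overlap, but its log2 fold change of 0.73 ± 0.16 had an adjusted p of 0.0565 in edgeR and of 0.00432 in DESeq2. KLF4, an epithelial differentiation factor, measured 26.6, 11.9 and 20 CPM at 0 h and 39.2, 35.0 and 35.5 CPM at 2 h. KLF4 rose by 0.89 ± 0.18 on the log2 scale (adjusted p = 0.0353), and 0 h replicate 2 was again the lowest. KLF7 rose by 0.67 ± 0.14 on the log2 scale (adjusted p = 0.0327). Of the 11 Kruppel-like factors measured these 2 were called, and KLF4 and KLF7 kept the call in 1 and 3 of the 6 leave-one-out fits. Of the 18 immediate-early transcription factors, which serum and growth factors switch on within minutes, edgeR and DESeq2 called 0. At an unadjusted p under 0.05, 3 of the 18 were higher and 3 lower, where 6.37% and 5.05% of all tested genes were. EGR1 had a log2 fold change of 0.44 ± 0.14 (adjusted p = 0.251) and IER3 of -0.47 ± 0.14 (adjusted p = 0.209). In sip53 edgeR called both, EGR1 higher (adjusted p = 0.0151) and IER3 lower (adjusted p = 0.0386).

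Secreted factors and surface proteins were a further set. F3, tissue factor, the cell-surface starter of blood coagulation, went from 61.9, 39.5 and 56.8 CPM to 89.5, 97.1 and 112 CPM. F3 rose by 0.91 ± 0.14 on the log2 scale (adjusted p = 0.00123). CCN1, a matrix-associated signalling protein, measured 145, 67.9 and 130 CPM at 0 h and 207, 216 and 254 CPM at 2 h. The low 0 h value was that of replicate 2. The log2 fold change of CCN1 was 0.98 ± 0.17 (adjusted p = 0.00648), and the call was lost without siControl 2 h replicate 3 (adjusted p = 0.0749). F3 and CCN1 were the called members of the 18 measured YAP and CCN genes, a list with a median of 0.18, with 7 members higher and 1 lower at an unadjusted p under 0.05, where 6.37% and 5.05% of all tested genes were. CCN2, another member, had a log2 fold change of 0.58 ± 0.18 (adjusted p = 0.232).

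NMU, a secreted neuropeptide, changed by 0.55 ± 0.11, and SHISA2, a membrane protein that holds back FGF and Wnt receptors, by 0.93 ± 0.19, both with an adjusted p of 0.0308. ANXA1, a calcium-dependent phospholipid-binding protein, had the smallest change of the 35, 0.45 ± 0.09, with 439, 442 and 510 CPM at 0 h and 614, 653 and 631 CPM at 2 h. ANXA1 had an adjusted p of 0.0305. CLDND1, a claudin-domain membrane protein, changed by 0.65 ± 0.13 and SYT7, a calcium sensor of vesicle fusion, by 0.46 ± 0.10. Of these, NMU, SHISA2 and ANXA1 were called in 3 of the 6 leave-one-out fits, CLDND1 in 2 and SYT7 in 0.

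Of the 35 genes 6, or 17.1%, were solute carriers, membrane transporters that made up 1.64% of the tested genes (251 genes). This family was counted after the calls were seen and has no test. SLC22A5, the carnitine transporter, rose most clearly, from 10.2, 5.52 and 8.92 CPM to 24.5, 25.4 and 24.9 CPM. The log2 fold change of SLC22A5 (chr5:132369752-132395614) was 1.59 ± 0.18 with an adjusted p of 2.37e-05. Its relative SLC22A3, an organic cation transporter, measured 21.5, 33.6 and 35.4 CPM at 0 h and 40.6, 68.0 and 77.5 CPM at 2 h. SLC22A3 rose by 1.05 ± 0.19 on the log2 scale (adjusted p = 0.0107), and the closest values of its groups lay near each other. SLC2A1, the glucose transporter GLUT1, went from 84.4, 73.9 and 82.7 CPM to 116, 115 and 144 CPM (0.64 ± 0.12, adjusted p = 0.0128). It was the called member of both the glycolysis and hypoxia list (28 measured) and the glucose-sensing list (10 measured). SLC19A2, a thiamine transporter, was low, at 4.71, 1.41 and 3.91 CPM at 0 h and 8.86, 9.16 and 15.3 CPM at 2 h. SLC19A2 changed by 1.70 ± 0.33 on the log2 scale (adjusted p = 0.0272). The zinc transporter SLC39A14 changed by 0.66 ± 0.14 (adjusted p = 0.0382) and SLC35F6, a lysosomal member of a nucleotide-sugar transporter family, by 0.47 ± 0.09 (adjusted p = 0.0145). In the leave-one-out fits SLC22A5 was called in all 6, SLC22A3 and SLC2A1 in 4, SLC19A2 in 3, SLC35F6 in 2 and SLC39A14 in 1.

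Other transport and metabolic genes were ABCC1, SCNN1G, MGST1 and POFUT1. ABCC1, the drug and glutathione-conjugate exporter MRP1, changed by 0.84 ± 0.17 (adjusted p = 0.0344), and MGST1, a membrane glutathione transferase, by 0.51 ± 0.10 (adjusted p = 0.0308). SCNN1G, a subunit of the epithelial sodium channel, measured 0.2, 0.898 and 0.977 CPM at 0 h and 3.41, 2.98 and 4.17 CPM at 2 h. These SCNN1G levels rest on 17 raw counts at 0 h and 92 at 2 h, and its log2 fold change of 2.37 ± 0.51 (adjusted p = 0.0493) was called in 0 of the 6 leave-one-out fits. POFUT1, which adds fucose to Notch receptors, rose by 0.66 ± 0.13 (adjusted p = 0.0272). Of the 10 measured Notch and HES genes edgeR called 0, and DESeq2 called 1, NOTCH2 (adjusted p = 0.0231). At an unadjusted p under 0.05, 3 of the 10 were higher and 0 lower, where 6.37% and 5.05% of all tested genes were. MGST1 and ABCC1 were called in 3 of the 6 leave-one-out fits and POFUT1 in 1. CENPA, the centromeric histone, was the called member of 34 mitosis genes, at 0.82 ± 0.17 (adjusted p = 0.0488). CENPA overlaps SLC35F6 on the same strand, so reads of this pair could have been split in counting, and both are uncertain. CENPA was called in 1 of the 6 leave-one-out fits.

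MIR205HG, the host transcript of a microRNA and the called non-coding gene, measured 164, 192 and 188 CPM at 0 h and 251, 285 and 313 CPM at 2 h. The groups did not overlap, and the log2 fold change was 0.64 ± 0.12 (adjusted p = 0.0145), called in 3 of the 6 leave-one-out fits. The row of ENST00000541740 could not be named in the annotation used. ENST00000541740 went from 4.81, 12.6 and 7.94 CPM to 27.4, 42.6 and 46.8 CPM, a log2 fold change of 2.22 ± 0.26 (adjusted p = 3.9e-05). The remaining 33 called rows were protein-coding genes.

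**Figure D3:**
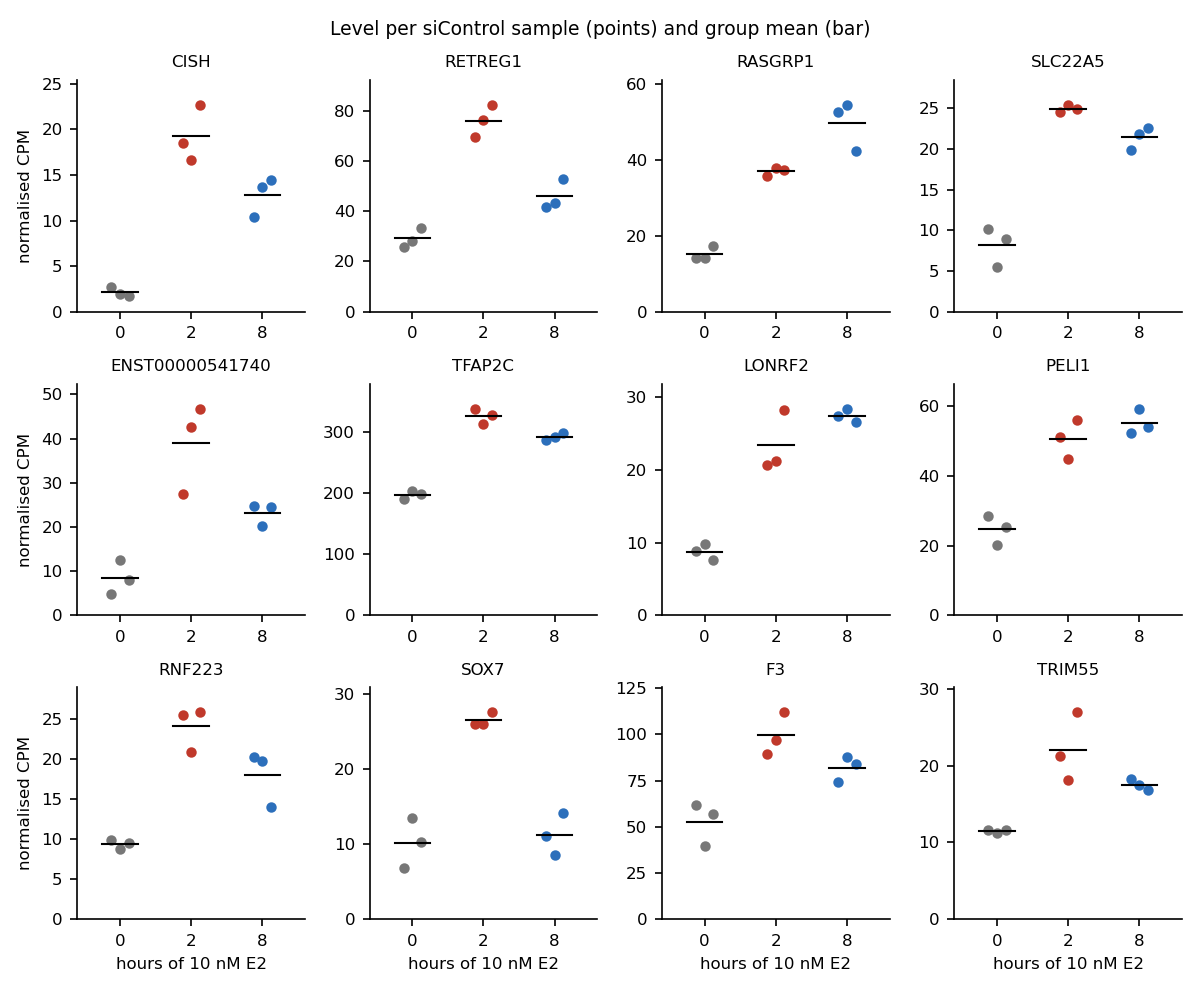
TMM-scaled CPM (y axis, from 0) of 12 of the 15 genes called in every leave-one-out fit, in each siControl sample at 0, 2 and 8 h of 10 nM E2 (x axis). Points are samples and bars are means of 3. In every panel the 3 points at 2 h lie above the 3 at 0 h, and for SOX7 the points at 8 h return to 8.58 to 14.1 CPM.

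In the main fit edgeR called no gene lower, while DESeq2 called 29, among them PTPN14 (adjusted p = 0.00135), OVOL1 (0.00994) and HDAC7 (0.00388). PTPN14, a tyrosine phosphatase that binds YAP, came nearest in edgeR, at 122, 119 and 119 CPM at 0 h and 92.0, 91.7 and 87.7 CPM at 2 h. The PTPN14 groups were tight and did not overlap, and the log2 fold change was -0.41 ± 0.09 (adjusted p = 0.0543), and edgeR called it lower under upper-quartile scaling and with a filter at a mean of 1 CPM. OVOL1, an epithelial zinc-finger factor, had -0.64 ± 0.15 (adjusted p = 0.0643), from 25.5, 25.9 and 23.7 CPM to 15.9, 16.6 and 15.6 CPM. HDAC7, a histone deacetylase, had -0.38 ± 0.09 (adjusted p = 0.0702), from 744, 857 and 745 CPM to 571, 615 and 613 CPM. These 3 genes, chosen after their values were seen, all had separate groups at 0 and 2 h, which 6.24% of tested genes had in the lower direction. Fitted on the 6 samples alone, edgeR called 1 gene lower, NBPF20 (adjusted p = 0.0212), which had an adjusted p of 0.244 in the main fit.

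The gene lists of growth and stress below gave 0 calls in edgeR. The 37 ribosome biogenesis genes, the 41 DNA replication genes and the 24 MYC and G1 regulators had 0 edgeR calls and medians of 0.05, 0.07 and -0.01. At an unadjusted p under 0.05 these lists had 3, 3 and 1 genes higher and 1 lower each, where 6.37% and 5.05% of all tested genes were. DESeq2 called 0, 1 (PCNA) and 1 (MYC) in these lists, all higher. The 33 p53-activated targets had 0 calls in edgeR and in DESeq2 and a median of 0.02. At an unadjusted p under 0.05, 4 of them were higher and 1 lower, against the same shares of all tested genes. Among the 21 chaperones and sensors of the unfolded protein response edgeR and DESeq2 called 0. Of the 21, 20 had a positive log2 fold change (49.0% of all tested genes did) and 8 were higher at an unadjusted p under 0.05 (6.37% of all), with 0 lower (5.05% of all). Their median was 0.13. HERPUD1, a factor of endoplasmic reticulum protein disposal, had the smallest p of that list, at 0.42 ± 0.11 (adjusted p = 0.139). In the sip53 arm the median of the same list was -0.01, with 10 of 21 positive (48.7% of all tested genes). The 20 cytosolic heat shock genes had a median of -0.06, and DNAJB1, a cochaperone, was at -0.31 ± 0.10 (adjusted p = 0.237).

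The sip53 arm gives the same 2 h comparison in 6 other libraries, which played no part in choosing the 35 genes, although both arms share 1 estimate of the spread. All 35 genes had a positive log2 fold change there, against 48.7% of tested genes, and in all 35 the 3 values at 2 h lay above the 3 at 0 h, against 8.04%. In that arm 21 of the 35 were called higher, where 0.268% of tested genes were, and 29 were higher at an unadjusted p under 0.05, where 2.96% were. The median log2 fold change of the 35 was 0.95 in sip53. The 21 shared genes were 60.0% of the siControl calls and 44.7% of the 47 sip53 calls, which were 0.307% of tested genes. All 15 genes called in every leave-one-out fit were called in sip53, and 6 of the other 20 were. Lower calls in sip53 numbered 6 (0.0392%), none of them among the 35. CISH measured 1.8, 2.35 and 2.8 CPM at 0 h and 26.5, 26.0 and 28.0 CPM at 2 h in sip53, a log2 fold change of 3.53 ± 0.21 (adjusted p = 6.7e-10). RETREG1 rose there from 38.3, 46.8 and 44.0 CPM to 130, 133 and 130 CPM, a change of 1.60 ± 0.12 (adjusted p = 1.88e-08).

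**Figure D4:**
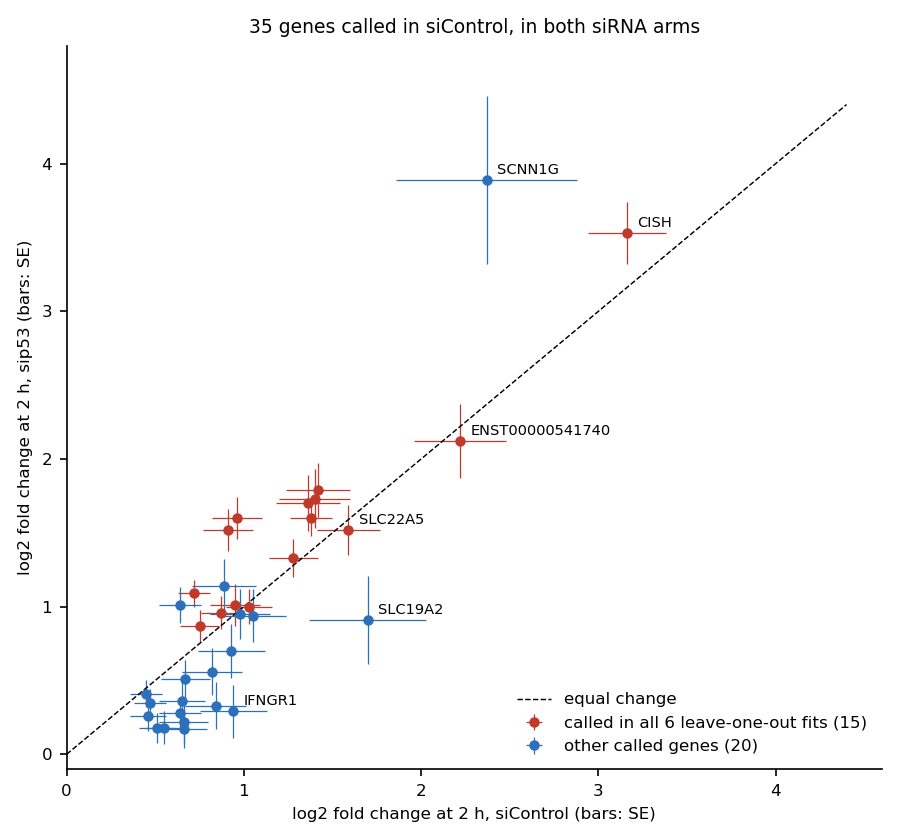
Log2 fold change at 2 h against 0 h of the 35 genes in siControl cells (x axis) and in sip53 cells (y axis), with SE bars. Red points are the 15 genes called in every leave-one-out fit and blue points are the other 20. All points lie above 0 on the y axis, and the dashed line marks an equal change, with SLC19A2 and IFNGR1 among the genes under it.

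The test of the difference between the arms called 0 genes (0.0%), with 451 at an unadjusted p under 0.05 (2.94%), and DESeq2 called 1. Among the 35 genes, 11 had an unadjusted p under 0.05 for that difference, and the adjusted p was 1 for each of them. The 35 were chosen by the siControl change that enters this difference, so the count and its direction are a description and are not read against all genes. TFAP2C, F3 and MIR205HG were among the genes with a larger change in sip53. For F3 the difference of log2 fold changes, sip53 minus siControl, was 0.61 ± 0.20 (unadjusted p = 0.00535), and the sip53 libraries of F3 started lower, at 28.4, 28.0 and 26.0 CPM. SLC2A1, POFUT1, IFNGR1, NMU, MGST1, ABCC1 and SLC39A14 had the smaller change in sip53. IFNGR1 measured 18.2, 15.6 and 19.0 CPM at 0 h and 21.6, 23.3 and 19.7 CPM at 2 h in sip53, so its sip53 0 h level was above its siControl 0 h level. The difference for IFNGR1 was -0.65 ± 0.26 (unadjusted p = 0.019).

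The siControl samples at 8 h share the 0 h libraries with the comparison above, so the values are given side by side. At 8 h against 0 h, 26 of the 35 genes were called higher, where 1.78% of tested genes were. At 8 h against 2 h, 4 were called lower, where 0.379% were, and 0 were called higher, where 0.646% were. The 35 were chosen by the 0 h and 2 h values that enter these comparisons. The counts are therefore a description and are not read against all genes. RASGRP1 had 52.6, 54.5 and 42.3 CPM at 8 h and log2 fold changes against 0 h of 1.28 at 2 h and 1.71 at 8 h. The 4 genes that fell between 2 and 8 h were RETREG1, SOX7, CCN1 and NMU. SOX7 was back at 11.1, 8.58 and 14.1 CPM at 8 h, overlapping its 0 h values, and its change from 2 h to 8 h was -1.23 ± 0.20 (adjusted p = 0.00148). CCN1 likewise had 113, 135 and 127 CPM at 8 h and a change from 2 h of -0.85 ± 0.17 (adjusted p = 0.00909). RETREG1, at 41.5, 43.3 and 52.8 CPM, stayed above its 0 h level (0.66 ± 0.12, adjusted p = 0.0035). For the other 31 genes the step from 2 h to 8 h did not pass the test, with CISH at -0.58 ± 0.18 (adjusted p = 0.136).

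**Figure D5:**
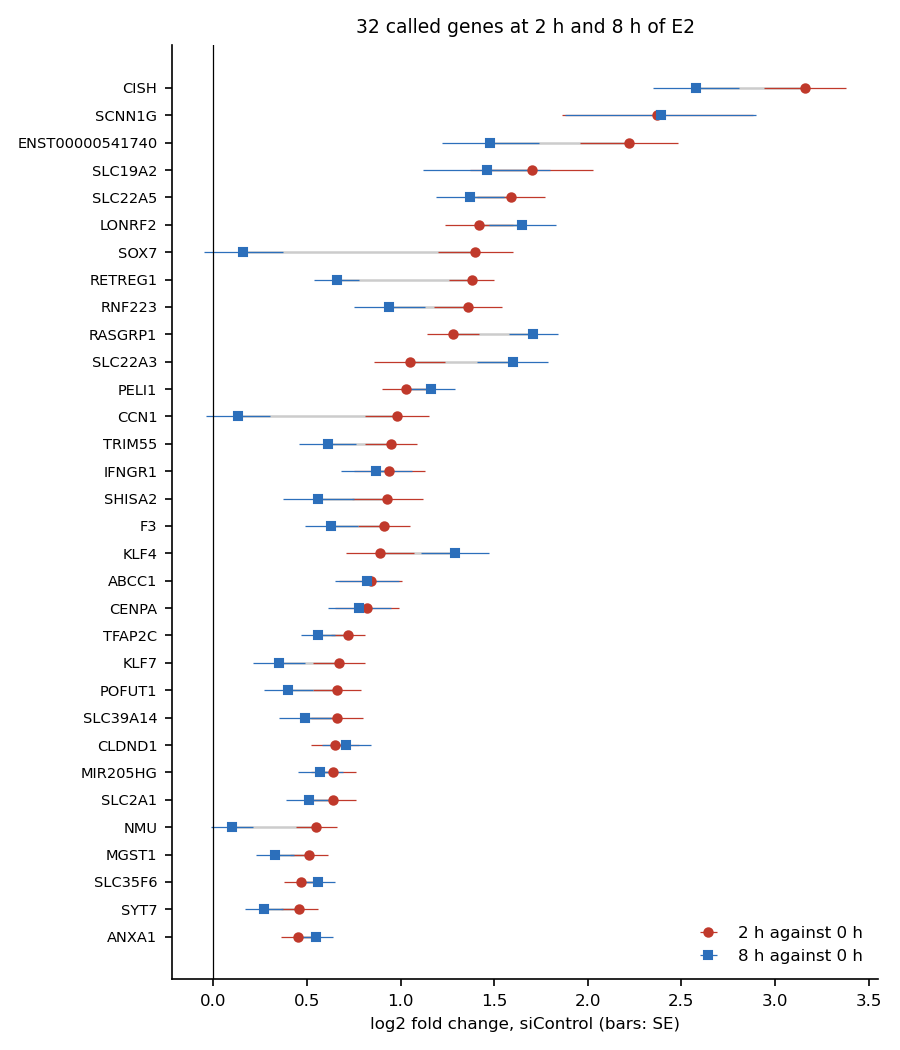
Log2 fold change against 0 h in siControl cells (x axis, bars are SE) of 32 of the 35 genes (y axis) at 2 h (red circles) and 8 h (blue squares). Both use the same 0 h libraries. SOX7, CCN1 and NMU sit near 0 at 8 h (0.16, 0.13 and 0.10), and CISH remains the highest at 2.58.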

How the data were processed

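RNA was measured with QuantSeq 3' mRNA libraries, per the labels' protocols. The deposited table holds expected counts per gene that the authors made with RSEM 1.3.3, and the submitters' processing notes also name Bowtie2, cutadapt, MultiQC and build hg19. The annotation they counted against is not given in the sources here. All deposited expected counts were already whole. Rows, identified by transcripts, were named through GENCODE v29 (GRCh38, the build of all coordinates here): 52673 by a single gene, 267 by a majority, 154 had no majority and 4642 had no transcript there. Unnamed rows held 0.635% of counts.

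Tests used edgeR 4.0.16 (R 4.3.3): filterByExpr (minimum count 10), TMM, and a quasi-likelihood fit of all 18 samples in 6 groups, Benjamini-Hochberg adjusted. The biological coefficient of variation was 15.2%. Replicates differed beyond counting noise (chi-square per degree of freedom 4.31 to 22.87 within the 6 samples). Replicate numbers were not taken as pairs in the main fit. The same steps were also run on simulated counts drawn from the fitted spread. These held no outlying library and no shared cultures, so that run cannot speak to either. The members and lists were chosen with earlier results of these data known. The rule named ESR1, GREB1, PGR, MYC, CCND1 and AREG, up to 12 called genes per direction with the largest rises and falls (0 falls were called, mean log2 CPM of at least 3, groups not overlapping), the 5 with the smallest adjusted p per direction, and up to 4 called members per list. There were 38 lists, and 2 of them (endothelial and mitochondrially encoded) had 0 measured genes. Alternatives were upper-quartile scaling, DESeq2 1.42.0, other filters, a replicate block, length and GC correction, the compared groups alone, a 1.5-fold test and leaving out each library. Some single genes, and the level of the siRNA's target, are not reported here.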

Additional observations from a re-analysis of the deposited data

How the results depend on the processing

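For 2 h against 0 h in siControl the 35 calls became 285 without a filter on low counts (164 higher, 121 lower). With DESeq2 there were 130 (101 higher, 29 lower). The compared groups alone gave 13 (12 higher, 1 lower) and a test against a 1.5-fold change gave 6. The 35 calls became 17 to 144 when 1 library was left out, with 144 (112 higher, 32 lower) without siControl 0 h replicate 1, 19 without siControl 0 h replicate 2, 18 without siControl 2 h replicate 2 and 17 without siControl 2 h replicate 3. Length and GC correction gave 52 and upper-quartile scaling 35. In sip53 the 47 calls (41 higher, 6 lower) became 204 without the filter (87 higher, 117 lower), 94 with DESeq2 (65 higher, 29 lower) and 30 to 42 in the leave-one-out fits. The difference between the arms had 36 calls without the filter and 1 with DESeq2. For 8 h against 0 h the 399 calls became 789 without the filter, 681 with DESeq2, 131 with the groups alone and 179 to 739 in the leave-one-out fits. For 8 h against 2 h the 157 calls became 313, 350 and 81 to 105 in the same order, without the groups alone. The causes were not tested.

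The replicate block gave 28 calls for 2 h against 0 h in siControl (26 of the 35 among them) and 43 in sip53. Same-numbered siControl samples had correlations of deviations of 0.209, 0.073 and 0.024, and differently numbered ones ran from -0.147 to 0.086. In sip53 the same-numbered values were 0.014, -0.057 and 0.035. The numbers were not taken as pairs, and whether they mark pairs is unresolved. The log2 fold change of ESR1 ran from -0.129 to 0.17 in the leave-one-out fits and reversed in sign without siControl 0 h replicate 1 (-0.063) and without siControl 2 h replicate 3 (-0.129). The motif share was 35.71% for the single arm GGTCA and 10.71% for TTCNNNGAA (3 windows, CISH among them), against 0 for the full element. List medians moved by more than their spread in 25 of 455 checks, all in leave-one-out fits. Each group had 3 samples, and the number of calls moved widely between settings, while 15 genes were called whichever of the 6 libraries was left out. SCNN1G, SLC19A2 and GREB1 had too few counts for a close estimate.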

Other observations

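Of the 47 genes called at 2 h in the sip53 arm, 26 were not called in siControl. Of those, 22 had the same sign there with an unadjusted p under 0.05, where 6.37% of all tested genes were higher and 5.05% lower. All 47, which include the 21 genes called in both arms, had the same sign in both arms. Of all tested genes, 49.0% had a positive log2 fold change in siControl. Examples chosen after their values were seen are STC2 (log2 fold change 0.60 in sip53, 0.36 ± 0.08 in siControl), IRX3, a homeobox factor (0.75 and 0.45 ± 0.10), and EGR1, an immediate-early factor (0.74 and 0.44 ± 0.14). PFKFB3, an enzyme that speeds glycolysis, measured 8.91, 11.6 and 8.19 CPM at 0 h and 13.8, 11.1 and 14.1 CPM at 2 h in siControl, groups that overlapped. Its change was 0.45 ± 0.17 in siControl and 1.38 ± 0.17 in sip53, and the difference had an unadjusted p of 0.000948 and an adjusted p of 1. FILIP1L, a filamin-associated protein, was among the 6 genes called lower in sip53, at -1.15, and in siControl it was at -0.62 ± 0.20 (adjusted p = 0.244).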
